A study of Mus musculus with 6 samples.

Results

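Glucose entry, the glucose-6-phosphate cycle, pyruvate entry into mitochondria and the ATP-sensitive potassium (KATP) channel were followed through 7 genes in mouse pancreatic islets. They are Slc2a2, G6pc2, Abcc8, Kcnj11, Pcx, Mpc1 and Mpc2, found by symbol among the 18437 genes of the deposited table. All 7 passed a filter on low values, as did 16042 genes in all. The islets came from Sec16b-/- mice (knockout, 3 libraries) and Sec16b+/+ mice (wild type, 3 libraries), all male and 30 weeks old, and were profiled by RNA sequencing. Sec16b encodes a scaffold of endoplasmic reticulum exit sites, and the series asks about its part in glucose homeostasis. The labels state neither the design of the knockout allele nor the strain nor whether each library is a separate animal. A p-value here therefore speaks only to the spread among these libraries.

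In a beta cell, glucose enters through a transporter of the plasma membrane, is phosphorylated, and is broken down to pyruvate. Pyruvate crosses the inner mitochondrial membrane through a dedicated carrier and is either oxidised or carboxylated. The ATP made in this way closes the KATP channel, the membrane depolarises, and calcium entry drives insulin release.

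Slc2a2 encodes the facilitative glucose transporter GLUT2, and G6pc2 a glucose-6-phosphatase of the endoplasmic reticulum that turns glucose-6-phosphate back into glucose. Abcc8 encodes the sulfonylurea receptor, the regulatory subunit of the KATP channel, and Kcnj11 its inward rectifier pore. Pcx encodes pyruvate carboxylase, which makes oxaloacetate from pyruvate, and Mpc1 and Mpc2 the partner subunits of the mitochondrial pyruvate carrier. Windows around the transcription start were available for 5 of the 7 genes from RefSeq on GRCm38.p6, each of 300 bases (250 before the start and 50 after it), and for Abcc8 and Kcnj11 there was none. The windows shown belong to the pair of genes whose levels varied most between libraries, Slc2a2 and G6pc2, and to the carrier pair, Mpc1 and Mpc2, whose ratio did not overlap between genotypes. They lie at chr3:28697653-28697952 for Slc2a2, at chr2:69210823-69211122 and chr2:69219699-69219998 for the start sites of G6pc2, at chr17:8283537-8283836 for the first start of Mpc1 and at chr1:165461010-165461309 for Mpc2, all on the plus strand. Capitals mark matches on either strand to any of 6 motifs that were searched. The TATA box was searched as TATAAA, the CCAAT box by the letters of its name, and the GC box as GGGCGG. The E-box was searched as CACGTG, the core of the HNF1 site as GTTAAT, and the core of the Maf site as TGCTGA. No marked stretches of different motifs overlapped.
Slc2a2: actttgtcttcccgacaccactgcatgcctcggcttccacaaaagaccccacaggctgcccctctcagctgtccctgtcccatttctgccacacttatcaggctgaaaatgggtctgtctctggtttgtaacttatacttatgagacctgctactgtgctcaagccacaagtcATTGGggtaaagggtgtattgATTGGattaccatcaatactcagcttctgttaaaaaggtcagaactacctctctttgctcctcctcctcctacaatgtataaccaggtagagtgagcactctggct
G6pc2, first start: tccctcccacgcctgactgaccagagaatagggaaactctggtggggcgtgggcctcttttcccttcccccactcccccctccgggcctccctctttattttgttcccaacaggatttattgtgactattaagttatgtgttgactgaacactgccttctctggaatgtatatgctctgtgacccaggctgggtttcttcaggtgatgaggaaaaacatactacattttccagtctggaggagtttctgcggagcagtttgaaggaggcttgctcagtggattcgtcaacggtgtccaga
G6pc2, second start: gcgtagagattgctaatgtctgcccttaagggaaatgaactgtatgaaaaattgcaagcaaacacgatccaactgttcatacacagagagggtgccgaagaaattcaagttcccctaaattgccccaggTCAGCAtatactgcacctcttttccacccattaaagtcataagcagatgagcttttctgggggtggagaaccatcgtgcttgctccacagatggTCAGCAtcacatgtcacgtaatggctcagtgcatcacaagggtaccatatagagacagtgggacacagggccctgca
Mpc1: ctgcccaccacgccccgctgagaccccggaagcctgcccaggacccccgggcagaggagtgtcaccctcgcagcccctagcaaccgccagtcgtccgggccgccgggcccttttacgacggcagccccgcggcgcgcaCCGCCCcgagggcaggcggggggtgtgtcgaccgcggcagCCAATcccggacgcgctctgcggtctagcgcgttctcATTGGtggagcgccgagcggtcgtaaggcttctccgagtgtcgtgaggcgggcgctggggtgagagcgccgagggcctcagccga
Mpc2: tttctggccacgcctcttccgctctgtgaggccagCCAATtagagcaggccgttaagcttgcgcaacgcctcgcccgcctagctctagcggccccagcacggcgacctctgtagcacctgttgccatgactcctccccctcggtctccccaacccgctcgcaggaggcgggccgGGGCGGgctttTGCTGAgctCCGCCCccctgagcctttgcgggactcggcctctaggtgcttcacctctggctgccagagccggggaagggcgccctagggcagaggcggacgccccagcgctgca

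The Slc2a2 window was 48.0% G and C with 2 CpG pairs, and the G6pc2 windows were 50.7% and 47.3% with 6 and 5. The carrier genes had windows richer in G and C, at 73.7% with 39 CpG pairs for the first start of Mpc1 and 68.7% with 24 for Mpc2. The window of the second Mpc1 start, not shown, was 63.7% with 18. The median over 32851 windows of all genes was 52.7% with 7 CpG pairs. Slc2a2 held the CCAAT box at −77 and −56, both on the minus strand, and such a box stands in 37.4% of all windows. The second G6pc2 window held the Maf core at −121 and −27, and 19.5% of all windows hold it. The first G6pc2 window held none of the 6 motifs. The first Mpc1 window held the CCAAT box at −72 and −35 and the GC box at −112, and the second only a GC box at −121. Mpc2 held the CCAAT box at −215, the GC box at −76 and −56 and the Maf core at −65. A GC box is present in 35.7% of all windows, a TATA box in 13.6%, an E-box in 7.15% and an HNF1 core in 7.10%. These matches describe letters only, and gene counts do not show which start was used.

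As a check of genotype, Sec16b had normalized counts of 553, 433 and 750 in knockout replicates 1, 2 and 3, against 1655, 773 and 1786 in wild type replicates 1, 2 and 3. The log2 fold change was −1.22 (SE 0.35, limma unadjusted p = 0.0108, adjusted p = 0.993), and transcript remained in every knockout library. The adjusted p was 0.993 by edgeR and 0.0991 by DESeq2. Every knockout value lay below every wild type value, as in 5.22% of all genes tested. Depth ran from 22071895 to 26806787 reads per library. The beta cell identity of the tissue was checked with 8 markers (Ins1, Ins2, Iapp, Pdx1, Mafa, Nkx6-1, Ucn3 and Ero1b), all present in every library with a lowest value of 1596. Their mean log2(value + 1) was 14.97, 15.12 and 15.54 in knockout replicates 1, 2 and 3, against 15.18, 15.41 and 15.55 in wild type replicates 1, 2 and 3 (difference −0.17, two-sided exact permutation p = 0.4, adjusted p = 0.675 over 9 marker lists). The 8 acinar markers, of the exocrine pancreas, had levels of 15.99, 14.54 and 11.09 in knockout libraries against 13.91, 11.80 and 13.16 in wild type libraries (difference 0.91, exact permutation p = 0.6). They took 9.19%, 4.12% and 0.397% of knockout reads and 3.01%, 0.655% and 1.81% of wild type reads, and all 8 had a log2 fold change above 0. Over the 9 lists the lowest exact permutation p was 0.2, for the delta and PP cell list and the endothelial list, where 0.1 is the smallest possible. The largest difference was that of the lymphocyte list (1.99, exact permutation p = 0.3). Its levels were 10.5, 9.2 and 7.8 in knockout replicates 1, 2 and 3, against 10.4, 5.4 and 5.9 in wild type replicates 1, 2 and 3.

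None of the 7 genes passed the test between knockout and wild type islets. G6pc2 had the largest difference and was 1.48-fold lower on average in knockout libraries, while Abcc8 was 16.1% higher, and in both the genotypes overlapped. Mpc2 was the 1 gene whose 3 knockout values all lay above the 3 wild type values, by a narrow margin. Of all genes tested, 3.85% were separated in that direction and 9.08% in either direction. By limma, 0 of the 7 had an adjusted p under 0.05 or an unadjusted p under 0.05. The rate over all 16042 genes was 0.0% after adjustment and 3.08% before it. The quasi-likelihood test of edgeR also called 0 members, with 0 at an unadjusted p under 0.05, where the rates over all genes were 0.0% and 3.17%. DESeq2 called 0 of 7, with 1 (G6pc2) at an unadjusted p under 0.05. Over all genes DESeq2 called 12 of the 10555 with an adjusted p (0.114%) and had 3.28% of 18389 at an unadjusted p under 0.05. Of the 7 log2 fold changes 4 were above 0 and 3 below, with a median of 0.06, against a median of −0.0030 over all genes tested.

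**Figure D1:**
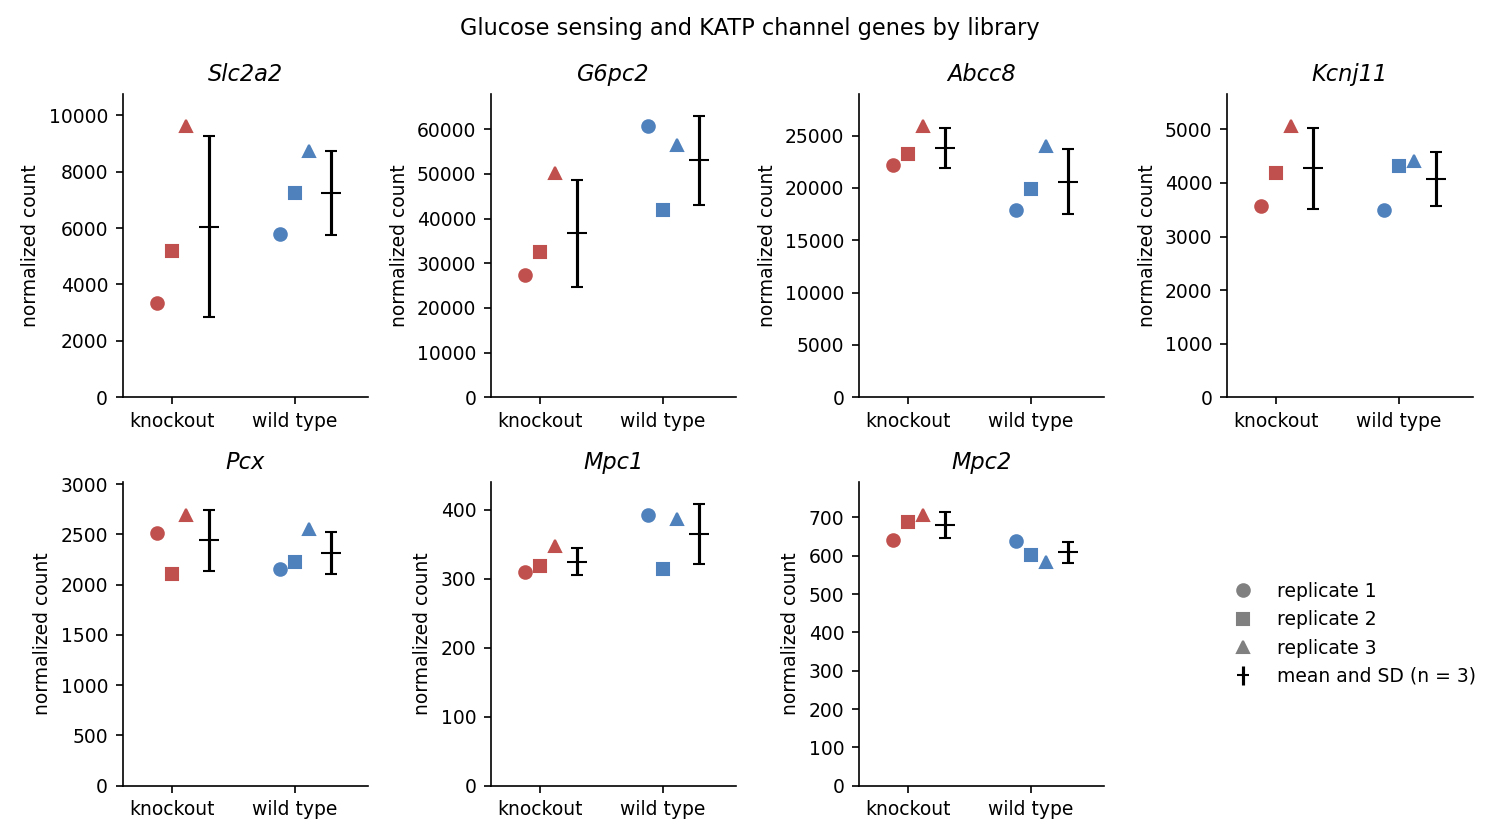
Normalized counts (y axis, from 0) of the 7 genes in each knockout (red, left) and wild type (blue, right) library, with symbols for replicates and the mean ± SD (n = 3) in black. The groups overlap in every panel except Mpc2, where 642 in the lowest knockout library stands just above 640 in the highest wild type library.

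Slc2a2, the glucose transporter gene, had normalized counts of 3357, 5177 and 9624 in knockout replicates 1, 2 and 3, against 5782, 7230 and 8748 in wild type replicates 1, 2 and 3. The wild type values all lay between knockout replicates 1 and 2 on the low side and knockout replicate 3 on the high side. The means were 6053 ± 3224 in knockout and 7253 ± 1483 in wild type libraries (SD, n = 3 each), a log2(value + 1) fold change of −0.38 (SE 0.37, 95% interval −1.26 to 0.50, limma adjusted p = 0.993). Of the 7 genes, Slc2a2 had the widest range, with 2.87-fold between its highest and lowest library. The median range was 1.32-fold over the 4800 genes with a mean of 1000 or more.

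The order of the libraries by Slc2a2 matched their order by the beta cell marker level except at the top. Knockout replicate 1 was lowest and knockout replicate 2 next in both, followed by wild type replicates 1 and 2, while knockout replicate 3 and wild type replicate 3 were the highest. Knockout replicate 1, lowest in Slc2a2, had the highest acinar level, and knockout replicate 3, highest in Slc2a2, had the lowest. With the beta cell marker level as a covariate in limma the fold change of Slc2a2 was 0.0053 (SE 0.13), and with the acinar level −0.13. Without knockout replicate 1 it was −0.02, and without knockout replicate 3 it was −0.78 (unadjusted p = 0.0203, limma adjusted p = 0.703). In whole islets, fewer beta cells and less transcript per beta cell cannot be told apart.

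**Figure D2:**
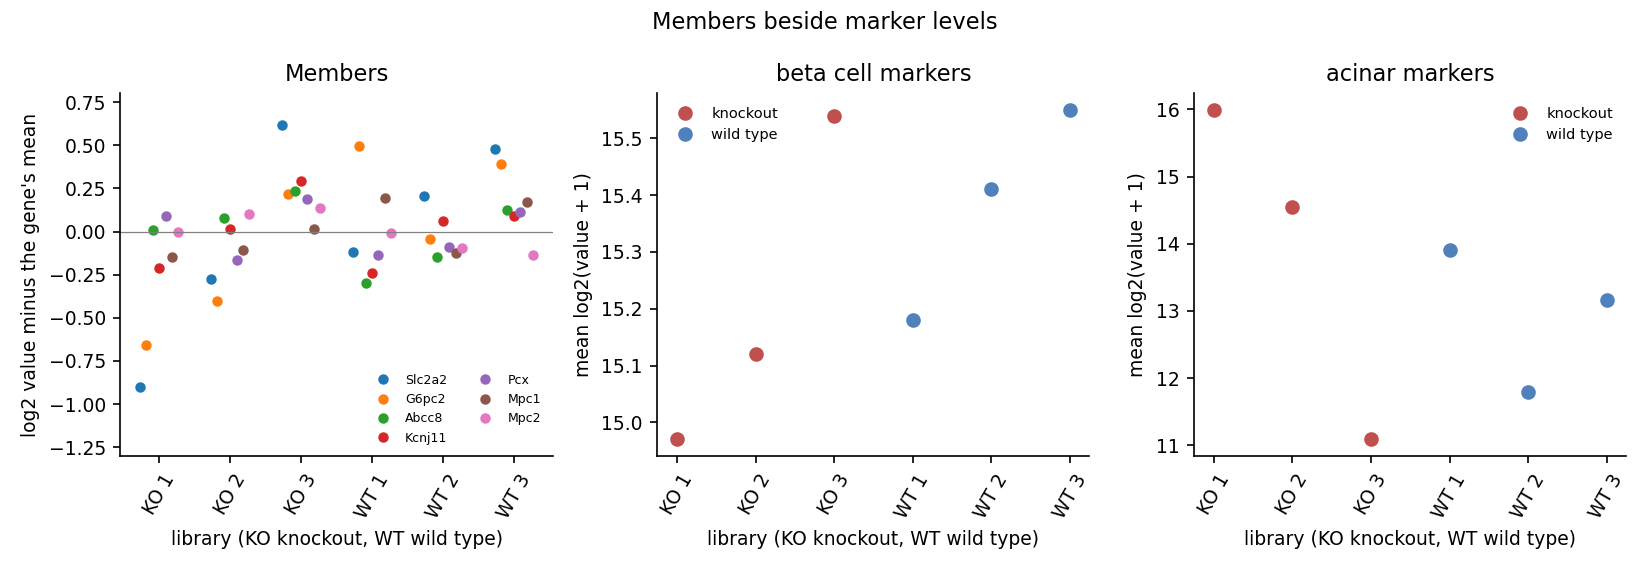
Left, log2 value of each gene minus its mean over the 6 libraries (knockout KO 1 to 3, then wild type WT 1 to 3); centre and right, mean log2(value + 1) of the beta cell and acinar markers. Slc2a2 runs from −0.90 in knockout replicate 1 to 0.62 in knockout replicate 3, the libraries with the highest and lowest acinar level.

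G6pc2, the glucose-6-phosphatase gene, had normalized counts of 27321, 32531 and 50157 in knockout replicates 1, 2 and 3, against 60736, 41817 and 56502 in wild type replicates 1, 2 and 3. The lowest values stood in knockout replicates 1 and 2, and knockout replicate 3 was above wild type replicate 2. The means were 36670 ± 11967 in knockout and 53018 ± 9929 in wild type libraries (SD, n = 3 each). The log2 fold change was −0.56 (SE 0.28, 95% interval −1.23 to 0.10), or 1.48-fold lower, with an unadjusted p of 0.0862 and a limma adjusted p of 0.993. With the beta cell marker level as covariate it was −0.40 (SE 0.25), and with the acinar level −0.46. Without knockout replicate 1 it was −0.37, and without knockout replicate 3 −0.81 (unadjusted p = 0.0144, limma adjusted p = 0.703). In that fit 7.03% of all genes had an unadjusted p under 0.05. G6pc2 stayed on the lower side in all 15 alternatives.

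The 7 genes together took 0.221%, 0.293% and 0.430% of reads in knockout replicates 1, 2 and 3, and 0.403%, 0.340% and 0.412% in wild type replicates 1, 2 and 3. G6pc2 alone took 0.101%, 0.140% and 0.228% of knockout reads, against 0.268%, 0.186% and 0.240% of wild type reads. Exact 95% Clopper-Pearson intervals, which cover counting error only, ran from 0.0995% to 0.102% for G6pc2 in knockout replicate 1 and from 0.266% to 0.271% in wild type replicate 1. Pcx, Kcnj11, Slc2a2 and Abcc8 had 2050 or more reads in their lowest library, where counting alone gives a coefficient of variation of at most 2.21%. Mpc1 and Mpc2 were shallower, with 252 and 523 reads in their lowest library. Counting alone gives 6.30% and 4.37% there, against a spread between libraries of 6.04% in knockout and 11.9% in wild type for Mpc1, and of 4.99% in knockout and 4.60% in wild type for Mpc2. Slc2a2 and G6pc2 had a Pearson r of 0.75 over the 6 libraries. Higher values stood between G6pc2 and Mpc1 (0.90) and between Slc2a2 and Kcnj11 (0.81). The other pairs of members lay from −0.26 to 0.73. These libraries differed in beta cell and acinar levels as given above, and the part of that in r was not tested.

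The KATP channel genes lie side by side on chromosome 7, with no RefSeq gene between them. Abcc8 had normalized counts of 22186, 23280 and 25906 in knockout replicates 1, 2 and 3, against 17890, 19890 and 24004 in wild type replicates 1, 2 and 3. Wild type replicate 3 lay inside the knockout range and the other wild type libraries below it. The means were 23791 ± 1912 in knockout and 20594 ± 3118 in wild type libraries (SD, n = 3 each), a log2 fold change of 0.22 (SE 0.16, 95% interval −0.15 to 0.59, limma adjusted p = 0.993). The sulfonylurea receptor gene thus stood on the higher side, as it did in all 15 alternatives, from 0.12 without wild type replicate 1 to 0.33 without wild type replicate 3. With the beta cell marker level as covariate its fold change was 0.31 (SE 0.13, unadjusted p = 0.0498, limma adjusted p = 0.995), and with the acinar level 0.26. In the beta cell covariate fit 580 of 16042 genes had an unadjusted p under 0.05.

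Kcnj11, the pore gene, had normalized counts of 3573, 4177 and 5063 in knockout replicates 1, 2 and 3, against 3501, 4321 and 4402 in wild type replicates 1, 2 and 3. The groups overlapped throughout. The means were 4271 ± 750 in knockout and 4075 ± 499 in wild type libraries (SD, n = 3 each), with a log2 fold change of 0.06 (SE 0.16, 95% interval −0.31 to 0.43, limma adjusted p = 0.993). Its sign turned when knockout replicate 3 (−0.069) or wild type replicate 1 (−0.045) was left out. With the beta cell marker level as covariate the fold change of Kcnj11 was 0.21 (SE 0.09, unadjusted p = 0.0609, limma adjusted p = 0.995), and with the acinar level 0.15. The log2 ratio of Abcc8 to Kcnj11 within a library does not depend on library scaling, apart from the pseudocount of 1. It was 2.63, 2.48 and 2.36 in knockout replicates 1, 2 and 3, against 2.35, 2.20 and 2.45 in wild type replicates 1, 2 and 3. The difference of 0.15 was not separated from the spread (two-sided exact permutation p = 0.2, adjusted p = 0.3 over 3 ratios).

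Among the genes of pyruvate entry, Pcx, the carboxylase gene, had normalized counts of 2515, 2110 and 2697 in knockout replicates 1, 2 and 3, against 2158, 2229 and 2556 in wild type replicates 1, 2 and 3. Knockout replicate 2 was the lowest of all 6 libraries and knockout replicate 3 the highest. The means were 2441 ± 301 in knockout and 2314 ± 212 in wild type libraries (SD, n = 3 each), a log2 fold change of 0.07 (SE 0.12, 95% interval −0.22 to 0.36, limma adjusted p = 0.993). Without knockout replicate 3 the fold change was −0.0029.

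The fold changes of the carrier subunit genes lay on opposite sides of 0. Mpc1 had normalized counts of 309, 318 and 347 in knockout replicates 1, 2 and 3, against 393, 315 and 386 in wild type replicates 1, 2 and 3. Wild type replicate 2 lay among the knockout libraries and the other wild type libraries above them. The means were 325 ± 19.6 in knockout and 365 ± 43.3 in wild type libraries (SD, n = 3 each), a log2 fold change of −0.16 (SE 0.14, 95% interval −0.50 to 0.18, limma adjusted p = 0.993).

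Mpc2 had normalized counts of 642, 689 and 708 in knockout replicates 1, 2 and 3, against 640, 602 and 585 in wild type replicates 1, 2 and 3. It was the 1 member of 7 without overlap between genotypes, a pattern found in 9.08% of all genes tested. The means were 679 ± 33.9 in knockout and 609 ± 28.0 in wild type libraries (SD, n = 3 each), a log2 fold change of 0.16 (SE 0.10, 95% interval −0.08 to 0.39, limma adjusted p = 0.993). With TMM scaling the lowest knockout value was 637.9 and the highest wild type value 638.5, so the groups then overlapped. The number of members without overlap was 0 with TMM scaling, where 8.93% of all genes had none. Groups of 2 against 3 libraries separate more often by construction. Without knockout replicate 3 the number was 3 (25.1% of all genes), with Slc2a2 and G6pc2 on the lower side. Without wild type replicate 2 it was also 3 (17.7% of all genes), with G6pc2 and Mpc1 on the lower side, and without wild type replicate 3 it was 2 (18.2% of all genes), with Abcc8 on the higher side. Mpc2 alone was without overlap when knockout replicate 1, knockout replicate 2 or wild type replicate 1 was left out (16.6%, 15.7% and 20.9% of all genes). Mpc2 lies on chromosome 1, as Sec16b does, with 62 protein-coding RefSeq genes between them. Any part of that linkage in the difference was not tested.

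The log2 ratio of Mpc1 to Mpc2, which is free of library scaling, was −1.05, −1.11 and −1.03 in knockout replicates 1, 2 and 3, against −0.70, −0.93 and −0.60 in wild type replicates 1, 2 and 3. All 3 knockout libraries had a lower ratio than any wild type library. The means were −1.06 ± 0.04 in knockout and −0.74 ± 0.17 in wild type libraries (SD, n = 3 each), a difference of −0.32. The two-sided exact permutation p of 0.1 is the smallest that 3 libraries against 3 can give, and its adjusted p over 3 ratios was 0.3. With single libraries left out the difference ran from −0.41 to −0.24. The log2 ratio of Slc2a2 to G6pc2 was −3.02, −2.65 and −2.38 in knockout replicates 1, 2 and 3, against −3.39, −2.53 and −2.69 in wild type replicates 1, 2 and 3 (difference 0.19, exact permutation p = 0.6).

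**Figure D3:**
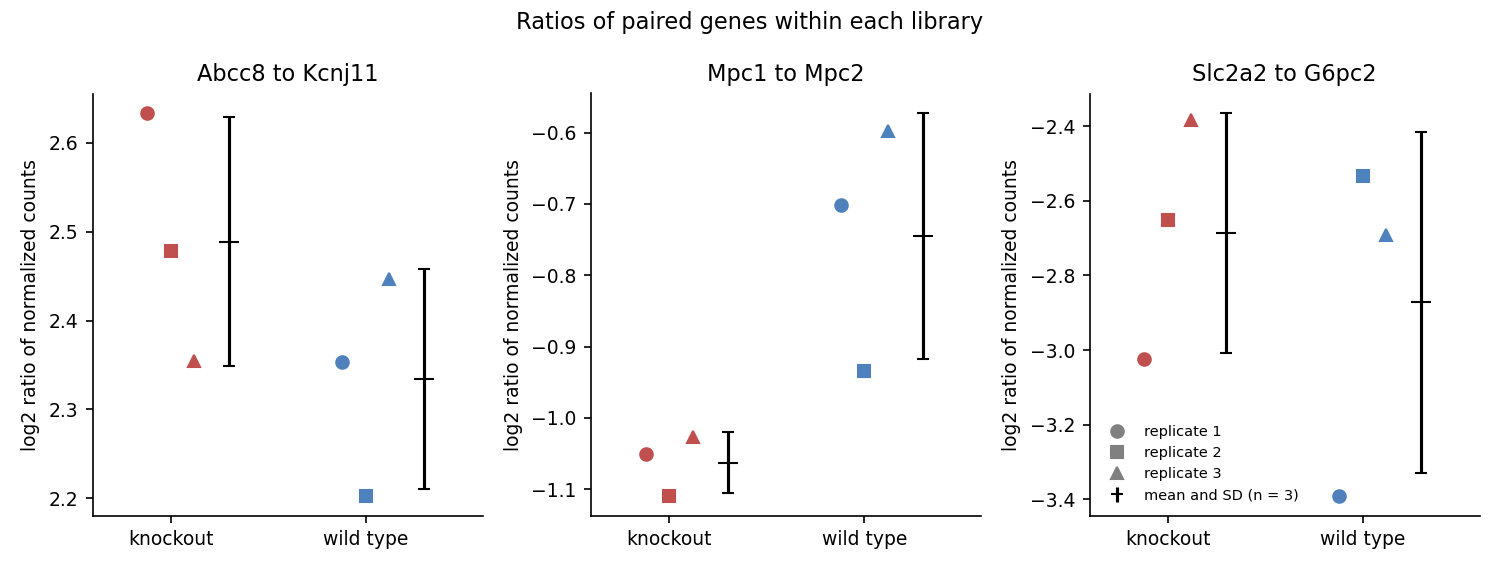
Log2 ratio of normalized counts (y axis) within each knockout (red, left) and wild type (blue, right) library for Abcc8 to Kcnj11, Mpc1 to Mpc2 and Slc2a2 to G6pc2, with the mean ± SD (n = 3) in black; the y axes do not start at 0. The knockout libraries lie between −1.11 and −1.03 for Mpc1 to Mpc2, below all wild type libraries, and overlap with wild type in the other panels.

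**Figure D4:**
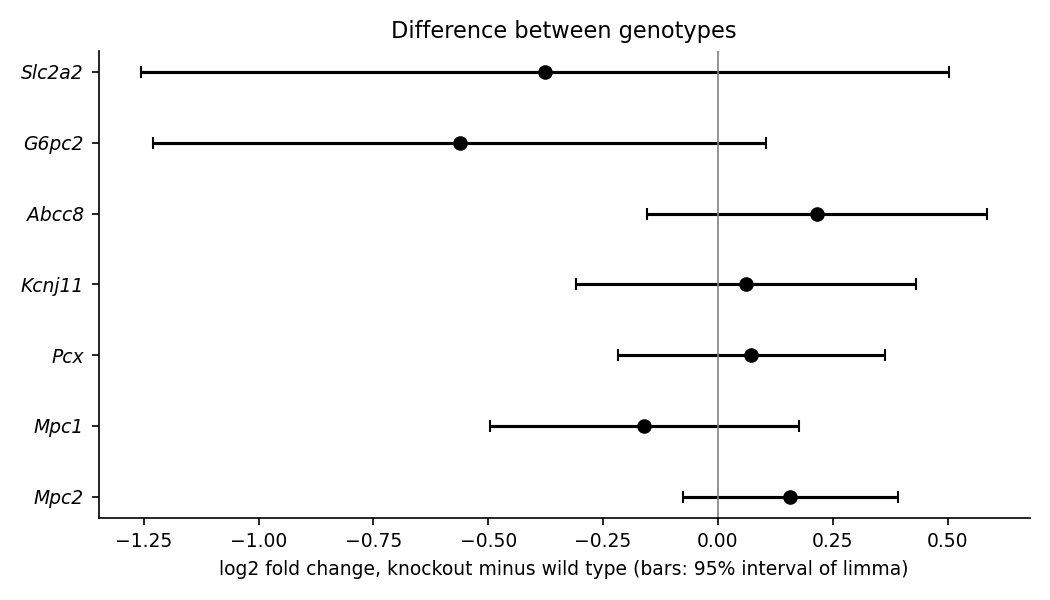
Log2 fold change, knockout minus wild type (x axis), of each gene with its 95% interval from limma. Every interval spans 0, and those of Slc2a2 (−1.26 to 0.50) and G6pc2 (−1.23 to 0.10) are the widest.

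Divided by exon length from GENCODE M21, in values per kilobase, G6pc2 stood highest at 18576 ± 6062 in knockout and 26858 ± 5030 in wild type libraries (SD, n = 3 each). Abcc8 followed at 2941 ± 236 in knockout and 2546 ± 385 in wild type libraries. Slc2a2 came to 1052 ± 560 per kilobase in knockout and 1260 ± 258 in wild type libraries. Kcnj11 came to 1162 ± 204 in knockout and 1108 ± 136 in wild type libraries, so Slc2a2 and Kcnj11 overlapped within their SDs in both genotypes. Pcx, at 514 ± 63.3 in knockout and 487 ± 44.7 in wild type libraries, stood below them. Mpc1 came to 156 ± 9.42 in knockout and 175 ± 20.8 in wild type libraries, and Mpc2 was lowest at 92.5 ± 4.62 in knockout and 82.9 ± 3.81 in wild type libraries. The length joins all annotated exons of a gene, which came to 2082 bases for Mpc1 and 7344 for Mpc2. Before division by length Mpc2 had the higher normalized counts of the 2 in every library. Their order per kilobase therefore rests on these lengths and does not show which transcript is scarcer. Whether the authors counted over the same exons is not given in the sources used here.

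The genes whose profile over the 6 libraries was most like each member, by Pearson r of log2 values, included none of the glucose metabolism genes listed further on. Slc2a2 was most like Lrfn1 and Adora1, an adenosine receptor gene (r of 0.996 and 0.995), and G6pc2 most like Zdhhc13 and Herc1 (r of 0.994 and 0.993). Abcc8 was nearest to Ambp and Slc12a5, a potassium and chloride cotransporter gene (0.990 and 0.988), and Kcnj11 to Ppp1r37 and Zcchc18 (0.999 and 0.996). Pcx was nearest to Pcdhgb1 and Zc3h12c (0.981 and 0.972), Mpc1 to Zfp970 and Lrrc39 (0.997 and 0.993), and Mpc2 to Tnfrsf21 and Rcc1l (0.980 for both). Members and genes with predicted, Rik, LOC, pseudogene or accession-like names were left out of this search. Each is a best match among the rest of the 16042 genes over only 6 libraries. These r values therefore describe the libraries and were not tested.

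The other genes of the same route gave no call either. Of 65 listed genes of glucose transport, glycolysis and pyruvate use, 64 were in the table and tested, and limma called 0 of them (36 below 0, 28 above). At an unadjusted p under 0.05 there were 3 of 64, namely Abcc9, Pdhb and Aco1, where the limma rate over all genes was 3.08%. EdgeR and DESeq2 each called 0 and had 2, Abcc9 and Pdhb, at an unadjusted p under 0.05. The unadjusted rates over all genes were 3.17% for edgeR and 3.28% for DESeq2, and the adjusted rates 0.0% and 0.114%. DESeq2 gave no adjusted p for 7 of the 64 listed genes, Abcc9 among them, so it could not call these. The median log2 fold change of the list was −0.05, against −0.0030 over all genes.

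Among other KATP channel genes, Abcc9, which encodes the sulfonylurea receptor of vascular and muscle channels, had normalized counts of 173, 152 and 137 in knockout replicates 1, 2 and 3, against 81.2, 104 and 77.4 in wild type replicates 1, 2 and 3. The groups did not overlap. The log2 fold change was 0.81 (SE 0.21, unadjusted p = 0.00679, limma adjusted p = 0.993). Kcnj8, the pore gene that pairs with Abcc9, was at 34.9 ± 20.0 in knockout and 20.0 ± 6.26 in wild type libraries (SD, n = 3 each), with a log2 fold change of 0.68 (SE 0.48). These genes are known from pericytes and smooth muscle. The 4 stellate and fibroblast markers had mean log2 levels of 8.29, 8.41 and 7.09 in knockout libraries against 6.88, 9.26 and 8.28 in wild type libraries. The 4 endothelial markers had 10.6, 10.3 and 10.2 in knockout libraries against 10.1, 10.3 and 9.92 in wild type libraries. No list of pericyte or smooth muscle markers was used. The part of any of these cell types in the Abcc9 values was not tested.

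Of 4 other glucose transporter genes, Slc2a1, which encodes GLUT1, had normalized counts of 3634, 1317 and 1065 in knockout replicates 1, 2 and 3, against 1491, 1266 and 1188 in wild type replicates 1, 2 and 3. The high value stood in knockout replicate 1 alone, the library with the highest acinar level and the lowest Slc2a2, and the fold change was 0.40 (SE 0.43) with it and −0.14 without it. Slc2a5, a fructose transporter gene, had normalized counts of 4044, 4857 and 7902 in knockout libraries against 6694, 6038 and 7118 in wild type libraries, with the same library order within the knockout group as Slc2a2. Of the 6 genes of other hexokinases and glucose-6-phosphate handling, all had a log2 fold change above 0, but 3 of them (Hk1, Hk2 and Hk3) were below 0 without knockout replicate 1 and with the beta cell or acinar marker level as covariate, and 1 or 2 were below 0 without each other single library except wild type replicate 2. Hk2, a hexokinase of low abundance in beta cells, was at 744, 188 and 63.8 in knockout libraries against 188, 210 and 83.5 in wild type libraries, and its fold change of 0.48 (SE 0.85) became −0.44 without knockout replicate 1. Hkdc1, a hexokinase relative, had 0.76 (SE 0.60) at a knockout mean of 39.7 and a wild type mean of 21.1.

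Of 17 glycolytic genes 11 were below 0 and 6 above, with a median of −0.06. Leaving out knockout replicate 2 turned that median to 0.15, and leaving out wild type replicate 1 turned it to 0.09. Eno2, the neuronal and endocrine enolase gene, was at 2257 ± 121 in knockout and 2546 ± 117 in wild type libraries without overlap (SD, n = 3 each), a log2 fold change of −0.17 (SE 0.08, limma adjusted p = 0.993). Ldhb, a lactate dehydrogenase subunit gene, had −0.50 (SE 0.33). The plasma membrane carriers of lactate and pyruvate, Slc16a1 and Slc16a3, had 0.33 (SE 0.60) and 0.44 (SE 0.60), and both turned negative without knockout replicate 1 (−0.08 and −0.25).

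Downstream of the pyruvate carrier, 6 of 11 genes of pyruvate dehydrogenase and its regulators were below 0. All 5 genes of the complex itself (Pdha1, Pdhb, Dlat, Dld and Pdhx) were below 0, with a median of −0.11, and all 4 kinase genes (Pdk1 to Pdk4), whose products switch the complex off, were above 0, with a median of 0.22. Exceptions were Pdhx, above 0 without knockout replicate 2, and Pdk1, below 0 without knockout replicate 1 and with the beta cell covariate. That split by role was made after the values were seen, and 50.6% of all genes tested were below 0. Pdhb, a subunit of the first enzyme of the complex, had normalized counts of 2039, 1925 and 2126 in knockout replicates 1, 2 and 3, against 2386, 2321 and 2458 in wild type replicates 1, 2 and 3. Every knockout value was below every wild type value, and the log2 fold change was −0.24 (SE 0.08, unadjusted p = 0.0228, limma adjusted p = 0.993). The 2 phosphatase genes, whose products switch the complex on, stood on opposite sides of 0. Pdp2 had −0.24 (SE 0.13) and Pdp1 had 0.20 (SE 0.13), both without overlap between genotypes. Pdha1 and Dld also lay lower in knockout without overlap, while Dlat, Pdhx and the kinase genes overlapped. Of all genes tested, 5.22% lay lower without overlap and 3.85% higher.

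Of 16 genes of anaplerosis and pyruvate cycling, the routes that Pcx feeds, 14 were below 0 and 2 above, with a median of −0.13. Aco1, the cytosolic aconitase gene, was at 1262 ± 54.2 in knockout and 1449 ± 57.0 in wild type libraries (SD, n = 3 each), without overlap, with a log2 fold change of −0.20 (SE 0.08, limma adjusted p = 0.993). Mdh1, the cytosolic malate dehydrogenase gene, had −0.22 (SE 0.11), also without overlap. Among the 6 genes of the NADH shuttles, 4 were below 0. The aspartate and glutamate carrier genes stood apart in sign, with −0.17 (SE 0.10) for Slc25a12 and 0.31 (SE 0.21) for Slc25a13. Over the whole list 9 of 64 genes had no overlap between genotypes, 2 higher and 7 lower in knockout, where 3.85% and 5.22% of all genes tested did so.

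**Figure D5:**
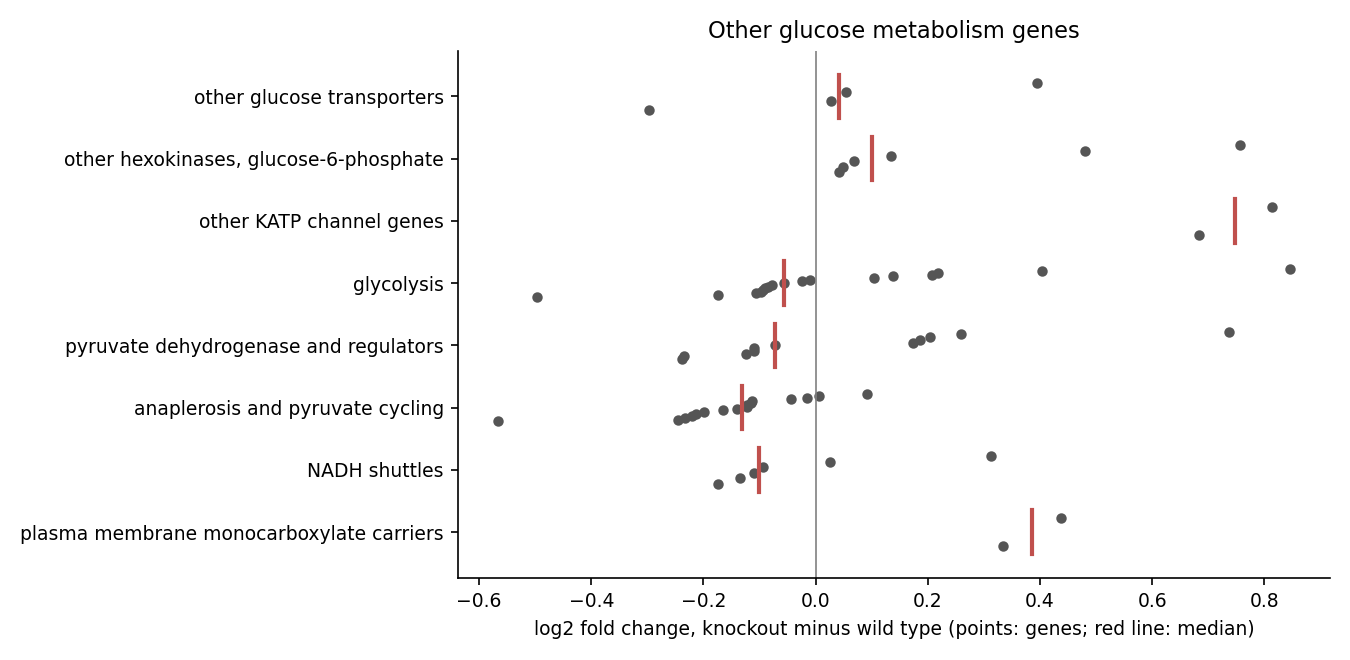
Log2 fold change, knockout minus wild type (x axis), of the 64 other glucose metabolism genes (points) in 8 groups, with the median of each group in red. The anaplerosis group lies mostly below 0 (median −0.13) and the other KATP channel genes above it (0.68 and 0.81), and none of the genes passed the adjusted threshold.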

How the data were processed

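The authors sequenced islet RNA and aligned reads with HISAT2, per the submitters' processing notes. No source used here names the counting program, its strand setting or the build. The deposited signal values are gene counts divided by one size factor per library: in each library 100% of values were whole multiples of one step (tolerance 0.01 reads), and no gene of the table was at 0 in any of them. A gene was kept if 3 or more libraries had a value of 10 or more (16042 of 18437), and was tested as log2(value + 1), which understates changes of low genes, with limma 3.58.1 (R 4.3.3) using a mean-variance trend, two-sided, with Benjamini-Hochberg adjustment over all genes tested at 0.05. The recovered whole reads were also tested with edgeR 4.0.16 and DESeq2 1.42.0. Ratios and marker levels were compared by exact permutation in scipy 1.17.1. The members and gene lists were chosen with earlier results of these data known. The genes named were the 7 members, Sec16b, the 2 of smallest p in each pathway group and the 2 most like each member. Hk1, Hk3 and the pyruvate dehydrogenase subunit, kinase and phosphatase genes outside that rule were named after their values were seen. G6pc was not analysed here. Counts were also simulated in 3 runs of 16042 genes, with 200 genes per run altered by 2-fold to 16-fold. There limma recovered 34.0% of the altered genes at a 2-fold difference and 69.3% at a 4-fold difference. In the real fit limma called 0 genes, and Sec16b, 2.33-fold lower in knockout, had an adjusted p of 0.993. The simulated rates therefore hold for that simulation only, and the recall in these libraries is not known. Libraries of a genotype differed far beyond sampling noise (chi-square per degree of freedom 53.5 to 304). Genomic sequences are RefSeq's.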

Additional observations from a re-analysis of the deposited data

How the results depend on the processing

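The alternatives were a pseudocount of 10, no filter, TMM scaling, no variance trend, edgeR, DESeq2, a replicate block, the beta cell or acinar marker level as covariate, and leaving out each library. Members past the adjusted threshold stayed at 0, and so did the listed glucose metabolism genes, in all 15. Members without overlap between genotypes were 0 with TMM scaling (8.93% of all genes) and 1 to 3 with single libraries left out (15.7% to 25.1% of all genes). The difference in the log2 ratio of Slc2a2 to G6pc2 ran from −0.074 (without wild type replicate 1) to 0.36 with single libraries left out, so its sign is not fixed. With the beta cell covariate the sign turned for Slc2a2 (0.0053), Hk2 (−0.33), Slc16a1 (−0.28) and Slc16a3 (−0.028), and with the acinar covariate for Hk2 (−0.012) and Slc16a1 (−0.0033). With single libraries left out, these fold changes spanned 0. Kcnj11 ran from −0.069 to 0.18 and Pcx from −0.0029 to 0.17. Hk2 ran from −0.44 to 1.33, Slc16a1 from −0.11 to 0.87, Slc16a3 from −0.25 to 0.81 and Slc2a1 from −0.14 to 0.74. Ppp1r37 ran from −0.060 to 0.16 and Zcchc18 from −0.055 to 0.16. Among marker levels, the acinar difference ran from −0.15 to 2.31, the macrophage one from −0.49 to 0.26 and the stellate one from −0.84 to 0.35. The cause of these changes was not tested.

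The labels do not say what a replicate number marks. Deviations of same-numbered libraries correlated at 0.43, 0.0037 and 0.36 for numbers 1, 2 and 3. The pairs numbered 1 and 3 had the highest values of the 9 possible pairs, but the pair numbered 2 did not reach 0.1, so the numbers were not treated as pairs. With the replicate block the G6pc2 fold change was −0.56 (unadjusted p = 0.0566), and the Mpc1 to Mpc2 difference was −0.32 (exact sign-flip p = 0.25, the smallest that 3 pairs allow). Limma called 0 genes with the block, with 864 at an unadjusted p under 0.05 against 494 without it.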
